A study of Mus musculus with 90 samples.

Results

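The 10 genes described here encode regulators of the first cell fate decisions of the mouse embryo, and they were taken by symbol from the 24422 genes of the count table. Cdx2, Gata3, Eomes, Elf5, Tfap2a and Tfap2c act in the trophectoderm. Gata6, Gata4 and Sox17 act in the primitive endoderm, and Id2 is a helix-loop-helix inhibitor. All 10 had a row in the table.

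RNA was measured in single MII oocytes, 2-cell embryos and 8-cell embryos of WT and Plag1 knockout (KO) CD-1 mice, 90 libraries in 6 groups. Sexually mature females were superovulated with pregnant mare serum and human chorionic gonadotropin (hCG) in both genotypes, and oocytes came from unmated females and were not cultured. KO females were mated with WT studs, so that the 2-cell and 8-cell embryos called KO here are heterozygotes that developed from an egg without Plag1, and no group held homozygous knockout embryos. Embryos were grown in KSOM medium. The labels give 21-23 h after hCG for the oocytes, 45-47 h for the 2-cell embryos and 71-73 h for the 8-cell embryos. Each group came from 2 to 4 donor females, which the labels do not tie to libraries, so p-values measure the spread between single oocytes or embryos, some of which share a mother. Every library holds a whole oocyte or embryo.

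The outer cells of the compacting morula become trophectoderm, the epithelium that forms the placenta, and the inner cells later split into epiblast and primitive endoderm, the source of the yolk sac lining. In outer cells the Hippo pathway is silent, and the TEAD4 factor with its partner YAP switches on Cdx2 and Gata3. AP-2 factors such as Tfap2c are supplied by the egg and are known to bind near trophectoderm genes, whereas Gata6 is among the first genes of the primitive endoderm and precedes Sox17 and Gata4.

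Upstream sequences of Cdx2 and Gata3 that match the palindrome bound by AP-2 factors, GCCNNNGGC, are shown. Cdx2 and Gata3 were the only members searched that held a match, and 2 AP-2 genes are among the 10. In the mm9 genome, 15.7% of the 24320 windows of 250 bases before a gene start held this motif on either strand. The window of Cdx2 held 1 match and that of Gata3 held 3, and G and C made up 55.2% and 70% of those windows. Capitals mark the match, the rest is flanking sequence, and all are written 5′ to 3′ on the minus strand, from which both genes are transcribed.
Cdx2, chr5:148118829-148118845, bases 20 to 4 before the start: taagGCCGCTGGCctgg
Gata3, chr2:9800461-9800477, bases 250 to 234 before the start: ccctGCCCGCGGCccct
Gata3, chr2:9800436-9800462, bases 235 to 209 before the start: ctctGCCCTAGGCgGCCCTTGGCggcg
The Gata3 window also held 3 matches to the PLAG1 consensus, 2 of which overlap AP-2 matches, against 9.77% of all windows with at least 1. Neither Cdx2 nor any other member searched had a PLAG1 match in its 250 bases. The search used a single form of the consensus with a fixed spacer. The longer motif of the authors and the wider promoter span that they scanned were not searched. The TEAD motif GGAATG, present in 11.6% of windows, was found in those of Elf5 and Sox17, and the GATA motif AGATAA, present in 9.05%, in none. Gata6 was not searched. These matches describe letters and not binding.

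Libraries with a median of less than 1 CPM (counts per 1000000 gene counts of the library) were left out, which removed 12 of 90 and kept 11 to 16 per group. Total gene counts of kept libraries ranged from 92475 in a 2-cell embryo to 2502421 in an oocyte, and 2-cell libraries were the shallowest, at medians of 148473 (WT) and 163626 (KO). Plag1 itself had a count in 16 of 16 WT and 3 of 14 KO oocytes. At the 2-cell stage Plag1 was detected in 1 of 11 WT but 9 of 11 KO embryos. The KO embryos carry a paternal WT allele, from which the authors report Plag1 expression at this stage, so the counts do not contradict the labels. These embryos are called labelled KO below, since KO names the genotype of the mother. At 8 cells it had a count in 5 of 15 WT and 4 of 11 KO embryos. Summed oocyte markers had medians of 8380 CPM (WT) and 25486 CPM (KO) in oocytes against 83.3 and 138 CPM in 8-cell embryos. Of 8 markers of the 2-cell embryo, 7 had a count in each 2-cell group.

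Levels are given in 2 units. CPM, on library sizes scaled by the trimmed mean of M values (TMM), relates a gene to the rest of its library and was used between genotypes. The spike-in level is the number of counts per 1000 counts of the ERCC RNA added in equal amount to each library, and it was used between stages. A call means that the edgeR quasi-likelihood p, adjusted by Benjamini-Hochberg over 16511 genes, was below 0.05. Of the 10 members, 8 passed the filter of at least 1 CPM in 5 libraries. Eomes and Sox17 did not and were not tested.

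**Figure D1:**
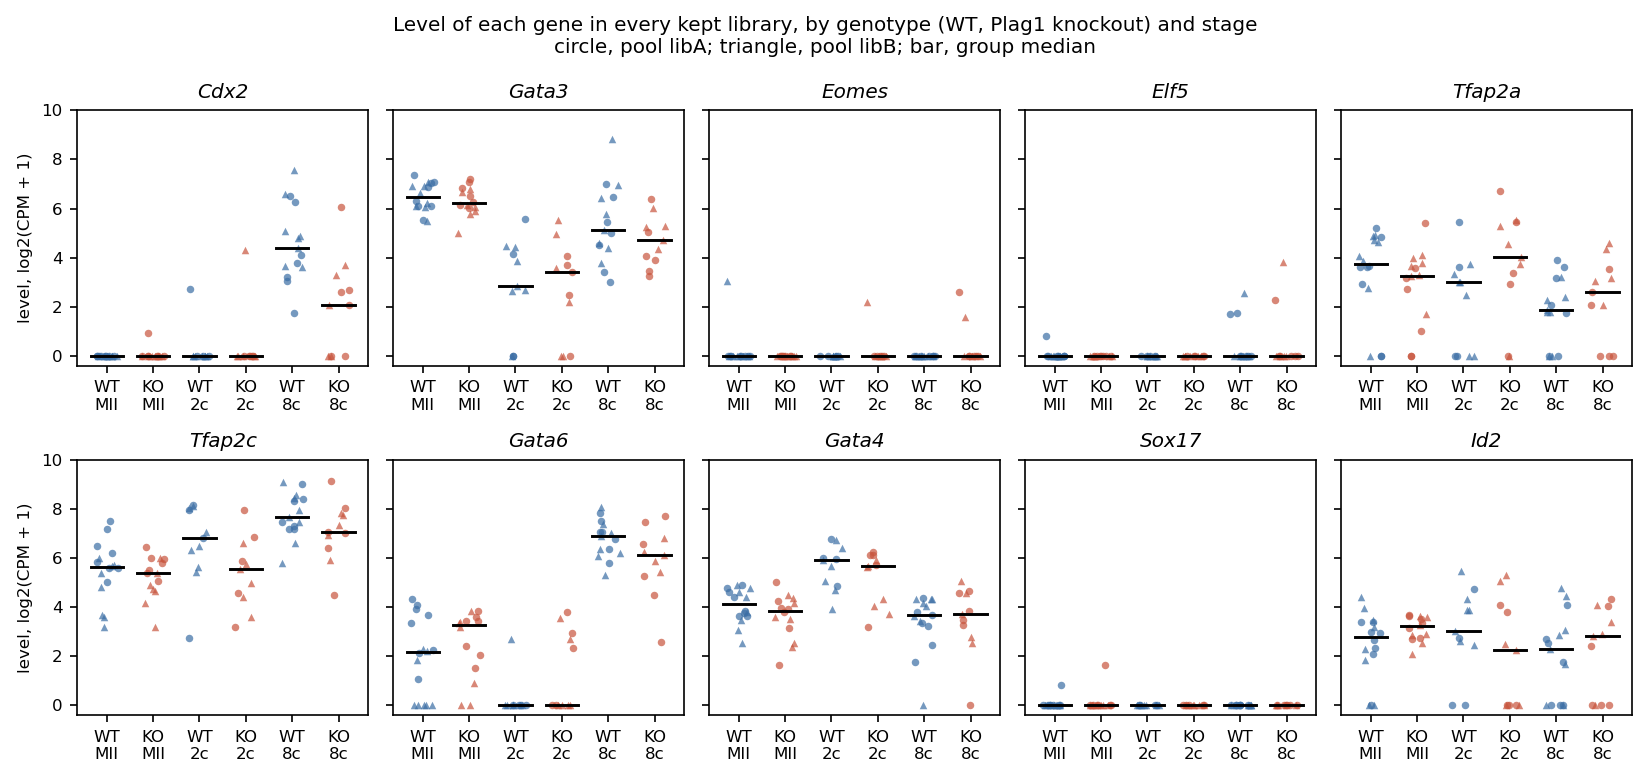
Level of each member in every kept library, as log2(CPM + 1), for the 6 groups. Circles (libA) and triangles (libB) are single oocytes or embryos and bars are group medians; the medians of Gata6 and Tfap2c are highest at 8 cells, of Gata3 in oocytes and of Gata4 at 2 cells, and Eomes, Elf5 and Sox17 are near 0 throughout.

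Eomes, Sox17 and Elf5 were hardly detected at any stage. Eomes, a T-box factor needed for trophoblast stem cells, had 2 counts in 1 of 16 WT oocytes, 1 count in 1 of 11 embryos labelled KO at 2 cells and 2 counts in 2 of 11 KO embryos at 8 cells. It had no count in the 15 WT 8-cell embryos, and detection at 8 cells did not differ by Fisher's exact test (two-sided p = 0.169). Sox17, an SRY-box factor of the primitive endoderm, had 2 counts in 1 WT oocyte and 2 in 1 KO oocyte. It had none in any kept embryo, which in WT 8-cell embryos allows a level of up to 0.479 CPM over the group. Elf5, an ETS factor that keeps trophoblast stem cells dividing, had 2 counts in 1 WT oocyte, 4 counts in 3 of 15 WT 8-cell embryos and 6 counts in 2 of 11 KO 8-cell embryos. It had no count at 2 cells in either genotype. Intervals and limits from counts cover counting error only.

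The other members are taken first along the stages. Within both genotypes the spike-in level fell between MII and 2 cells for most genes of the table, with a median log2 change of -1.46 in WT and -1.42 in KO, and rose from 2 to 8 cells, with medians of 0.53 and 0.30. The members are read against those medians. Relative to the rest of the library (TMM), the all-gene medians of the first step were -0.03 and 0.14 and those of the second -0.12 and -0.31.

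Gata3, a GATA factor that acts beside Cdx2 in the trophectoderm, was abundant in the egg, nearly gone at 2 cells and present again at 8 cells. In WT its spike-in level was 1.33 at the lowest, 4.02 at the median and 10.0 at the highest of 16 oocytes, and 0, 0.120 and 0.808 in 11 2-cell embryos. In KO it was 3.05, 5.86 and 9.16 in 14 oocytes and 0, 0.204 and 1.24 in 11 embryos labelled KO. In neither genotype did an embryo at 2 cells reach the lowest oocyte. The fitted log2 change was -4.39 (SE 0.59, adjusted p = 8.36e-10) in WT and -4.33 (SE 0.59, adjusted p = 9.99e-10) in KO. At 8 cells the spike-in level was 0.238, 1.35 and 14.2 in 15 WT embryos and 0.249, 0.776 and 4.08 in 11 KO embryos, overlapping both earlier stages in WT. The rise from 2 cells was 3.54 on the log2 scale (SE 0.58, adjusted p = 2.49e-07) in WT and 2.15 (SE 0.57, adjusted p = 0.00115) in KO. Under TMM scaling these Gata3 changes kept their direction and calls, and under median-ratio scaling the KO rise was 1.17 and not called (adjusted p = 0.0518).

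Cdx2, the homeobox factor that defines the trophectoderm and represses Pou5f1, was essentially a gene of the 8-cell stage. It had no count in 16 WT oocytes, which allows up to 0.295 CPM, 1 count in 14 KO oocytes, 1 count in 11 WT 2-cell embryos and 5 counts, all in 1 embryo, among the 11 labelled KO. At 8 cells all 15 WT embryos had counts, at spike-in levels of 0.088, 0.708 and 5.77 for the lowest, median and highest. In KO 7 of 11 embryos had counts, at 0, 0.102 and 3.25. Of the WT 8-cell embryos 14 of 15 lay above every WT 2-cell embryo, whose highest level was 0.091. In KO 9 of 11 8-cell embryos lay within the range of the 2-cell embryos labelled KO, whose highest level was 0.490. That higher limit was set by the 1 embryo with 5 counts, so the 2 shares are not alike. The 7 KO 8-cell embryos with counts lay above all other 2-cell embryos labelled KO. Pooled over embryos, WT had 287 counts at 8 cells against 1 at 2 cells, a spike-scaled ratio of 174 (95% interval 30.9 to 6880), and the change was called (adjusted p = 4.08e-08). In KO the counts were 48 against 5, a ratio of 9.81 (3.92 to 31.6), also called (adjusted p = 0.00201). In libB, 1 of the 2 sequencing pools, the KO change was 1.24 on the log2 scale and was not called (adjusted p = 0.396).

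Tfap2c and Tfap2a, the AP-2 factors, were already present in the egg and differed in their later course. The spike-in level of Tfap2c was 0.243, 2.07 and 19.7 (lowest, median, highest) in WT oocytes, 0.101, 1.82 and 7.31 at 2 cells and 1.32, 9.14 and 22.1 at 8 cells. In KO it was 0.483, 2.91 and 9.33, then 0.120, 1.12 and 6.06, then 0.694, 3.91 and 27.4. The ranges of all 3 stages overlapped in both genotypes. Tfap2c rose from 2 to 8 cells by 1.69 (SE 0.53, adjusted p = 0.00585) in WT and by 2.25 (SE 0.57, adjusted p = 0.000659) in KO. Relative to the rest of the library the WT change was 0.83 and not called (adjusted p = 0.0774), and in libA alone neither WT (adjusted p = 0.172) nor KO (adjusted p = 0.0579) was called. From MII to 2 cells it fell by 1.19 in KO (SE 0.54, adjusted p = 0.0460), but the fitted change was 0.62 under TMM and 0.86 under median-ratio scaling, so that the direction depended on the reference. In WT the change of the first step was -0.56 and not called, and under TMM scaling it was 1.27 (adjusted p = 0.00446).

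Tfap2a had its highest spike-in levels in oocytes, at 0, 0.800 and 2.83 in WT and 0, 0.666 and 3.71 in KO. At 2 cells it was 0, 0.108 and 0.876 in WT and 0, 0.337 and 1.57 in embryos labelled KO, and at 8 cells 0, 0.098 and 0.455 in WT and 0, 0.125 and 0.882 in KO. Every group held libraries without a count, and all ranges overlapped. Tfap2a fell from MII to 2 cells in WT by 2.35 (SE 0.70, adjusted p = 0.00252), a call lost under TMM (-0.78, adjusted p = 0.312), under median-ratio scaling (-0.73, adjusted p = 0.346) and in libA (adjusted p = 0.132). In KO the fitted change was -0.60 and not called, and it was 1.32 under TMM and 1.68 under median-ratio scaling. The later step was not called in either genotype, but in KO (-0.97) it was called under TMM (-1.79, adjusted p = 0.0174) and median-ratio scaling (-2.03, adjusted p = 0.00757).

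Gata6, the zinc finger factor that commits inner cells to primitive endoderm, was low in the egg, nearly absent at 2 cells and abundant at 8 cells. In WT its spike-in level was 0, 0.110 and 2.02 in oocytes. At 2 cells a single count was found in 1 of 11 WT embryos, and at 8 cells the level was 0.944, 4.09 and 12.5. Every WT 8-cell embryo lay above every WT 2-cell embryo. The pooled ratio between these stages was 481 (95% interval 86.2 to 19039), and the change was called (adjusted p = 1.16e-12). In KO the level was 0, 0.524 and 1.57 in oocytes, 0, 0 and 0.327 at 2 cells, where 5 of 11 embryos labelled KO had a count, and 0.125, 2.94 and 8.44 at 8 cells. The lowest KO 8-cell embryo lay within the 2-cell range, and the rise was 4.93 on the log2 scale (SE 0.71, adjusted p = 8.95e-09).

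The loss of Gata6 between MII and 2 cells was also called in both genotypes. The 73 counts of WT oocytes and the 1 count of WT 2-cell embryos gave a ratio of 47.2 lower (8.22 to 1891, adjusted p = 9.80e-06), and in KO the log2 change was -2.49 (SE 0.68, adjusted p = 0.00103). The WT oocyte level came mainly from 1 pool. In libA all 8 WT oocytes had a Gata6 count, with a mean of 9.66 CPM, and in libB 3 of 8 had one, with a mean of 1.27 CPM. Within libA the WT change was -6.08 (adjusted p = 0.000408) and within libB -1.20 (adjusted p = 0.397). The 4 WT 2-cell embryos of libA had no Gata6 count, so that -6.08 is not a measured size. The libB change rests on 4 counts in oocytes against 1 at 2 cells. Under TMM scaling the KO change was -0.71 and not called (adjusted p = 0.351).

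Gata4, a relative of Gata6 that acts later in the primitive endoderm, was found in every kept oocyte and 2-cell embryo. Its spike-in level was 0.237, 0.910 and 4.47 in WT oocytes, 0.216, 1.11 and 2.19 at 2 cells and 0, 0.440 and 0.857 at 8 cells. In KO it was 0.188, 0.825 and 3.61, then 0.120, 1.18 and 1.71, then 0, 0.424 and 1.11. The oocyte and 2-cell ranges overlapped throughout, and the medians were lowest at 8 cells. The first step was not called in either genotype, at 0.02 in WT and -0.20 in KO, while the all-gene median fell. Under TMM scaling Gata4 was called higher at 2 cells, by 1.68 in WT and 1.66 in KO. From 2 to 8 cells Gata4 fell by 1.32 in WT (SE 0.46, adjusted p = 0.0128), without a call in libA (adjusted p = 0.0806) or libB (adjusted p = 0.177) alone. The KO change was -0.90 (SE 0.50, adjusted p = 0.129), and it was called under TMM scaling (-1.59, adjusted p = 0.00106).

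Id2, which blocks helix-loop-helix factors and is an early marker of outer cells, was low at every stage. In WT its spike-in level was 0, 0.332 and 1.18 in oocytes, 0, 0.120 and 0.923 at 2 cells and 0, 0.176 and 0.979 at 8 cells. In KO it was 0.193, 0.560 and 1.94, then 0, 0.098 and 0.949, then 0, 0.204 and 0.742. All ranges overlapped. A single step was called, a fall of 1.56 from MII to 2 cells in KO (SE 0.67, adjusted p = 0.0359), which was 0.30 under TMM and 0.64 under median-ratio scaling and was not called in libA (adjusted p = 0.0541) or libB (adjusted p = 0.302) alone.

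Counted over the 8 tested members, 3 were called lower from MII to 2 cells in WT (Gata3, Tfap2a and Gata6), where 51.3% of all tested genes were. In KO 4 were called lower (Gata3, Tfap2c, Gata6 and Id2), against 50.3% of all genes. From 2 to 8 cells 4 were called higher in WT (Cdx2, Gata3, Tfap2c and Gata6), against 31.9% of all genes, and 1 lower (Gata4), against 16.2%. In KO 5 were called higher, against 29.1%, the fifth being Elf5, whose 6 counts against none put it at least 2.04-fold higher relative to a floor of 3 counts over the group. Elf5 reached 1 CPM in 8-cell embryos alone and Cdx2 in 22 of them and in 2 embryos at 2 cells, so both met the filter through the 8-cell stage and their direction here is no support. The Elf5 call was lost with the likelihood ratio test (adjusted p = 0.0742), in libA (adjusted p = 0.234) and in libB (adjusted p = 0.0590). The median log2 change of the tested members, with undetected groups set to that floor, was -1.48 and 0.81 in WT and -1.19 and 1.59 in KO. Under TMM scaling the first step had 2 members called higher and 2 lower in WT and 3 higher and 1 lower in KO, and the second 3 higher and 1 lower in WT and 5 higher and 2 lower in KO. The corresponding all-gene calls for the first step moved from 2326 higher and 8474 lower to 4540 and 3814 in WT, and from 2231 and 8306 to 4799 and 3192 in KO. For the second they moved from 5269 and 2681 to 3475 and 4767 in WT, and from 4812 and 3213 to 3501 and 5008 in KO.

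**Figure D2:**
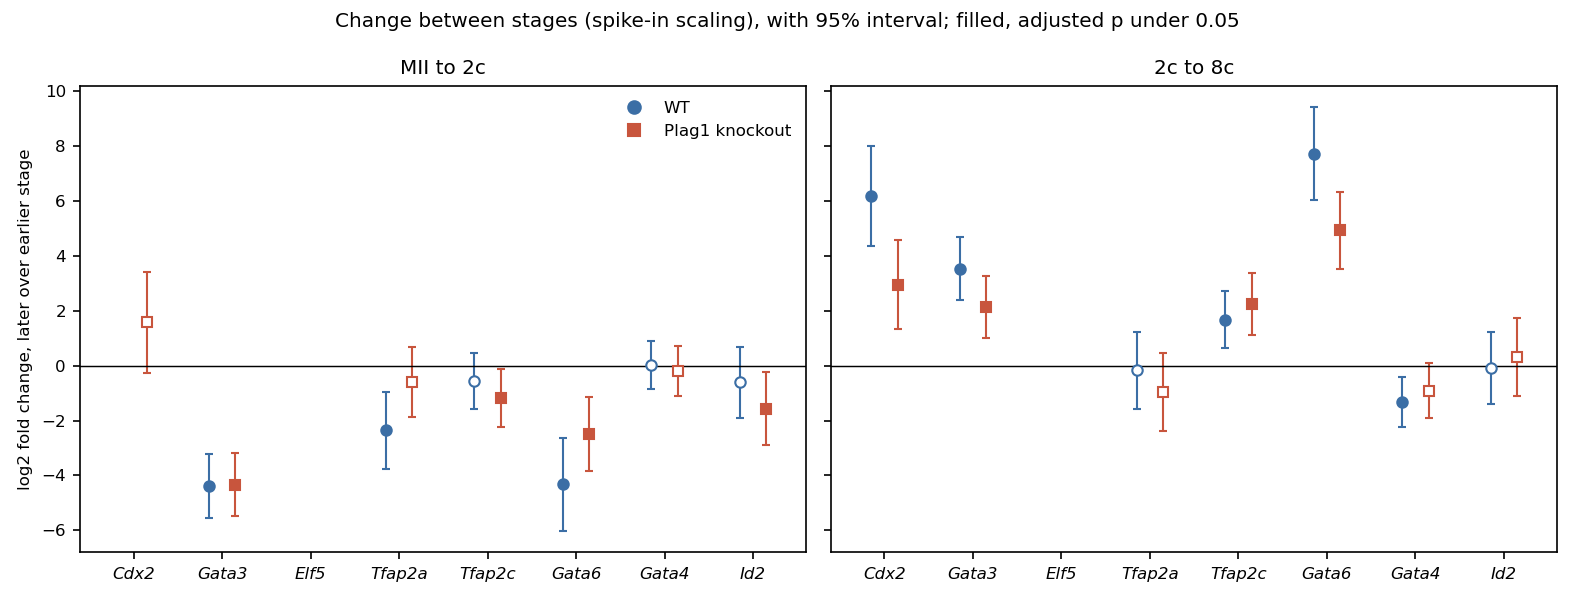
Fitted log2 change of the spike-in level of each member from MII to 2 cells and from 2 to 8 cells, in WT and KO, with 95% intervals and filled symbols for called changes. Gata3 and Gata6 lie far below 0 in the first step and above it in the second, Gata4 lies near 0 and then below it, and comparisons with no count in 1 group are not drawn.

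When the groups were ordered by mean spike-in level for each member, no neighbouring groups in the order had separate ranges, and none of their differences exceeded the sum of the 2 SDs. Ordered by mean CPM, 1 did, namely Gata6 between KO 8-cell embryos (81.4 ± 62.8 CPM, SD, n = 11) and KO oocytes (6.72 ± 4.87 CPM, SD, n = 14). The place of the highest mean depended on the unit. In CPM it lay in oocytes for Gata3 and Sox17, and at 2 cells for Tfap2a, Gata4 and Id2. In spike-in levels Tfap2a and Id2 had theirs in oocytes.

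Between genotypes the question is whether eggs without Plag1, and the embryos grown from them, differ in these factors. In oocytes none of the 8 tested members was called by edgeR's quasi-likelihood test, by its likelihood ratio test or by DESeq2, and none had an unadjusted p below 0.05, where 0.781% of all tested genes were called. Gata3 was at 44.1, 87.5 and 164 CPM (lowest, median, highest) in WT and 30.7, 73.2 and 146 CPM in KO. Tfap2c was at 8.01, 48.8 and 179 CPM in WT and 8.21, 40.6 and 85.5 CPM in KO. The 2 genotypes overlapped over most of their ranges in both. The 95% interval of the log2 difference, KO minus WT, was -0.91 to 0.56 for Gata3, -1.23 to 0.24 for Tfap2c, -1.06 to 0.32 for Gata4 and -0.72 to 1.04 for Gata6, so that changes of about those sizes are not excluded. Gata4, Gata6 and Id2 are also expressed by the cumulus and granulosa cells around the oocyte. Of 19 markers of those cells, 10 had a count in WT and 11 in KO oocytes, at summed levels of 15.1 to 560 CPM and 138 to 668 CPM. Serpine2 made up most of that sum, at a mean of 255 CPM in WT and 444 CPM in KO. Cyp19a1 had a count in 15 of 16 and 14 of 14 oocytes, and Fshr in 10 and 10. Foxl2, Amh, Ptgs2 and Ptx3 were at 0 in both. The oocytes had been stripped of cumulus cells with hyaluronidase, and the part of any remaining ones in these values was not tested.

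At the 2-cell stage none of the members was called by any of the 3 tests, where 4.92% of all genes were, and 3 had an unadjusted p below 0.05, as did 3380 of the 16511 genes. Tfap2a was at 0, 6.93 and 43.2 CPM in WT and at 0, 15.4 and 104 CPM in embryos labelled KO, with a log2 difference of 1.52 (95% interval 0.16 to 2.88, adjusted p = 0.179). Tfap2c was at 5.75, 112 and 281 CPM in WT and 7.97, 45.9 and 249 CPM in embryos labelled KO, with a difference of -1.15 (-2.03 to -0.26, adjusted p = 0.114). Both pairs of ranges overlapped, with the higher medians on opposite sides for the 2 AP-2 genes. Gata6 had 1 count in 1 of 11 WT embryos and 10 counts in 5 of 11 embryos labelled KO, a ratio of 8.55 (95% interval 1.22 to 371) with an adjusted p of 0.171. Thinned to the 92475 counts of the shallowest library, a Gata6 count would be expected in 0.608 WT embryos and 3.49 embryos labelled KO. Gata3, Gata4 and Id2 differed by 0.10, -0.39 and -0.31. Summed 2-cell markers were at medians of 243 CPM in WT and 530 CPM in embryos labelled KO, and summed oocyte markers at 3507 and 5414 CPM. Among the 2-cell markers Tdpoz4 was called higher in embryos labelled KO (3.37, adjusted p = 0.0014) and Eif1a lower (-1.51, adjusted p = 0.0253). The 2-cell sum had medians of 290 CPM in WT and 225 CPM in KO 8-cell embryos, so it did not mark the 2-cell stage alone. The part of either marker set in the differences of the members was not tested.

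At the 8-cell stage Cdx2 was the 1 member called, lower in KO, where 0.527% of all genes were called lower and 1.74% in either direction. It was at 2.38, 19.8 and 186 CPM in 15 WT embryos and at 0, 3.25 and 66.7 CPM in 11 KO embryos. The means were 41.8 ± 50.4 CPM (SD, n = 15) and 9.49 ± 19.4 CPM (SD, n = 11). The ranges overlapped, and each of the 7 KO embryos with a count lay above the lowest WT embryo. KO replicate 5 held 35 of the 48 KO counts, and the mean of the other KO embryos was 3.76 CPM. The log2 difference was -2.00 (SE 0.57, 95% interval -3.14 to -0.86, adjusted p = 0.0471), and the pooled counts differed 3.63-fold (2.66 to 5.03). A permutation test of log2(CPM + 1), two-sided with 100000 resamples, gave a difference of -2.57 (p = 0.0011). It was run for Cdx2 and Gata3 alone, and its p is unadjusted. It uses the counts that gave the call and treats the libraries as independent, so it is no separate support for that call. In whole embryos, fewer cells expressing a gene and less of its RNA per cell cannot be told apart. The authors report that embryos of KO mothers were delayed early in cleavage and later regained a normal pace. Both genotypes were collected at the same hours after hCG. The part of such a delay in the lower level of Cdx2, or of other genes called at 8 cells, was not tested.

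The Cdx2 call lay close to the threshold. It was met in 2 of 12 other settings and lost in the others, with adjusted p from 0.0226 to 0.763. DESeq2 gave -2.13 (adjusted p = 0.208) and the likelihood ratio test an adjusted p of 0.107. Within libA the difference was -1.05 (adjusted p = 0.763) and within libB -3.34 (adjusted p = 0.0659). The exact permutation test within pools gave -1.87 in libA (p = 0.113, two-sided) and -3.25 in libB (p = 0.0047). Leaving out single embryos, a step chosen after seeing the data, moved the difference from -3.35 to -1.60 and kept the call in 10 of 26 cases. The call was lost without WT replicates 6, 7, 9, 11, 12 and 14, and without each KO embryo other than replicate 5. Without KO replicate 5 it was -3.35 (adjusted p = 0.000848), and without WT replicate 12, the embryo with the most Cdx2, it was -1.60 (adjusted p = 0.139). A Cdx2 count was found in 15 of 15 WT and 7 of 11 KO embryos. Thinned to the shallowest library, 11.2 and 3.56 would be expected.

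Gata3 was lower in KO on average, without a call. It was at 6.96, 33.5 and 459 CPM in WT and at 8.61, 25.6 and 83.9 CPM in KO, so that the KO range lay inside the WT range. The log2 difference was -1.22 (SE 0.43, 95% interval -2.08 to -0.37, adjusted p = 0.126). WT replicate 12, which also had the most Cdx2, held 42.3% of the WT Gata3 counts. Without it the WT mean was 48.8 CPM in place of 76.1, and the difference was -0.59 (adjusted p = 0.566). The permutation test of log2(CPM + 1) gave -0.68 (two-sided p = 0.224).

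The other members were not called at 8 cells either. Tfap2c was at 54.1, 202 and 547 CPM in WT and 21.5, 131 and 563 CPM in KO (-0.51, 95% interval -1.29 to 0.27). Gata6 was at 38.6, 118 and 271 CPM in WT and 5.04, 69.0 and 209 CPM in KO (-0.59, -1.38 to 0.20). Gata4 was at 0, 11.9 and 19.7 CPM in WT and 0, 12.2 and 32.0 CPM in KO (0.25, -0.55 to 1.05). The medians of Tfap2c and Gata6 were lower in KO and that of Gata4 was close to that of WT, with wide overlap in all 3. Tfap2a (0.76) and Id2 (0.15) were also uncalled, as was Elf5, whose 6 and 4 counts gave a ratio of 2.47 (0.586 to 11.9). Of 8 markers of the 8-cell embryo, the summed level was 802 to 3269 CPM in WT, median 1496, and 262 to 2408 CPM in KO, median 546. Within that sum Pou5f1 alone was at a mean of 1249 CPM in WT and 648 CPM in KO, and Krt8 and Krt18 were also included. The same sum had medians of 604 CPM in WT and 466 CPM in KO oocytes, so it did not mark the 8-cell stage alone. Summed oocyte markers were at medians of 83.3 and 138 CPM. The part of these levels in the Cdx2 difference was not tested.

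**Figure D3:**
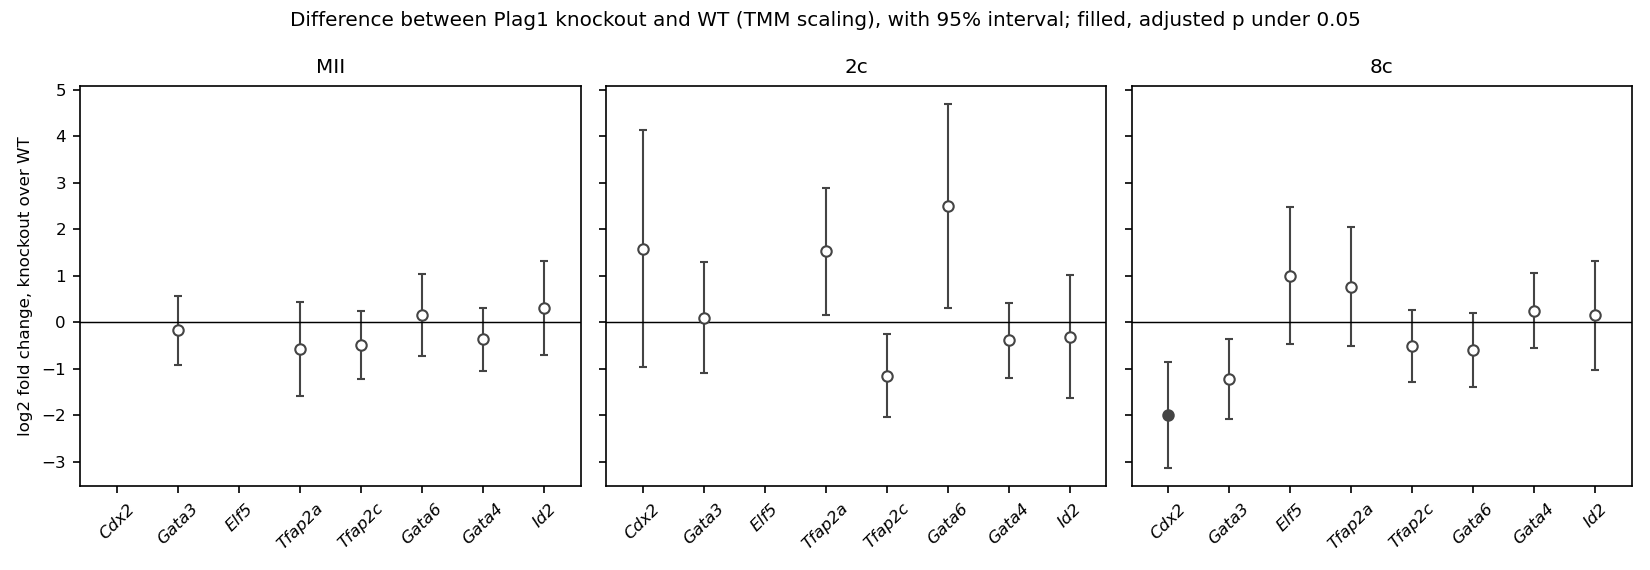
Fitted log2 difference of each member, KO minus WT, in oocytes, 2-cell and 8-cell embryos, with 95% intervals and filled symbols for called differences. Cdx2 at 8 cells (-2.00) is the one called difference, and comparisons with no count in 1 group are not drawn.

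Whether the genotype difference itself changed between stages was tested as an interaction, and no member was called in either step, against 3.31% of all genes between MII and 2 cells and 2.3% between 2 and 8 cells. By edgeR's quasi-likelihood test, the 1 tool run for it, 1 and 2 members had an unadjusted p below 0.05, as did 2923 and 2958 of the 16511 genes. Between MII and 2 cells this was Tfap2a, at 2.10 (SE 0.85, adjusted p = 0.161). Between 2 and 8 cells the values were -3.58 for Cdx2 (SE 1.47, adjusted p = 0.168) and -3.09 for Gata6 (SE 1.18, adjusted p = 0.131). The called Cdx2 difference at 8 cells was therefore not shown to differ from that at 2 cells, where Cdx2 had 6 counts in all.

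**Figure D4:**
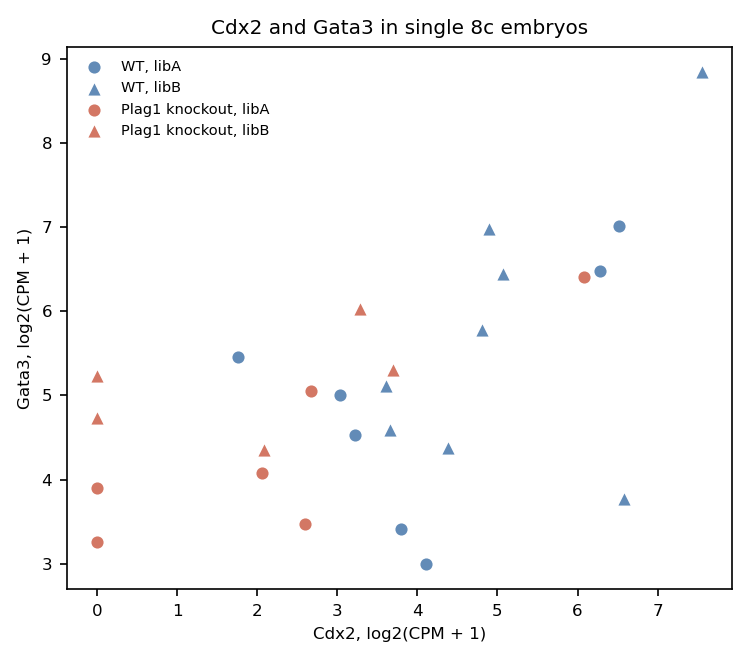
Cdx2 against Gata3 in single 8-cell embryos, both as log2(CPM + 1), WT and KO by colour and pool by symbol. The WT embryo at the upper right (186 CPM of Cdx2 and 459 CPM of Gata3) stands apart, and the KO embryo with 66.7 CPM of Cdx2 lies among WT embryos.

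Within 8-cell embryos of 1 genotype, Cdx2 and Gata3 tended to be high in the same embryos, a relation examined after seeing the data among 20 relations between 5 members. On log2(CPM + 1), Pearson's r was 0.54 in the 15 WT embryos (permutation p = 0.0393, adjusted 0.251) and Spearman's rho 0.45 (permutation p = 0.0993, adjusted 0.541). In the 11 KO embryos r was 0.64 (permutation p = 0.0363, adjusted 0.251) and rho 0.65 (permutation p = 0.0356, adjusted 0.541). Without the 2 embryos farthest from the median of Cdx2, r was 0.44 in WT and 0.28 in KO, so that the KO relation rested on those 2. Within pools r was 0.51 (libA) and 0.50 (libB) in WT, and 0.86 and 0.44 in KO. None of the 20 relations passed adjustment.

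The genes whose pattern over all 78 libraries was most like that of a member were taken among 10840 genes by Pearson's r of log2 CPM, as a description in which stage and library depth are shared by all. For Cdx2 they were Krt8 (r = 0.86), a keratin of simple epithelia, Pdzd3 (0.85) and Serpinb9b (0.83). For Gata6 they were Dnajc24, Grn and Cldn4, a tight junction claudin, all at 0.87. For Gata4 they were Rb1 (0.66), Mmp19 (0.62) and Cbln1 (0.62), and for Tfap2c Yif1b, Phykpl and Aatf, all at 0.71. Tfap2a (Tril, 0.54) and Id2 (Hsph1, 0.48) had no gene with a closely similar pattern.

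The wider trophectoderm list, chosen with earlier results of these data known, had 22 of 24 other genes tested. At 8 cells 4 were called lower in KO and none higher, where 0.527% of all genes were called lower and 1.74% in either direction. The median log2 difference was -0.30 against 0.00 over all genes. It was -0.31 for 14 tested inner cell mass and epiblast factors and -0.35 for 13 tested family relatives, with no call in either list. For 15 tested primitive endoderm genes it was 0.06. A median of this size was therefore not particular to the trophectoderm list. Krt18, the keratin partner of Krt8, was at 11.1, 44.6 and 120.3 CPM in WT and 2.40, 10.4 and 26.8 CPM in KO (-1.91, SE 0.45, adjusted p = 0.0115). Krt8 was at 19.4, 53.4 and 314 CPM in WT and 0, 12.996 and 56.3 CPM in KO (-1.91, SE 0.49, adjusted p = 0.0258). The KO medians of both keratins lay below the lowest WT embryo, with overlapping ranges. Aqp3, a water and glycerol channel, was at a mean of 190.1 ± 151 CPM in WT and 60.7 ± 41.0 CPM in KO (-1.63, SE 0.42, adjusted p = 0.0227). Dlx3, a homeobox factor of the placenta, had 75 counts in 10 of 15 WT embryos and 2 in 1 of 11 KO embryos, 22.7-fold lower (95% interval 6.08 to 191) (adjusted p = 0.0142). Leaving out single embryos kept the calls of Krt18 and Dlx3 in 26 of 26 cases, that of Aqp3 in 25 and that of Krt8 in 24. The Aqp3 call was lost without WT replicate 7 (adjusted p = 0.0512), and the Krt8 call without KO replicate 11 (adjusted p = 0.0530) or WT replicate 12 (adjusted p = 0.0877). Of 12 other settings, the call was met in 9 for Krt18 and Krt8, 8 for Aqp3 and 7 for Dlx3. Within libA none of these 4 was called (lowest adjusted p = 0.377), and within libB Krt8 was (adjusted p = 0.0425).

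At 2 cells Aqp3 went the other way. It was at a mean of 22.3 CPM in embryos labelled KO and 2.30 CPM in WT (3.04, SE 0.72, adjusted p = 0.0059). Within pools this was 6.88 in libA (adjusted p = 0.351) and 1.94 in libB (adjusted p = 0.174), without a call, and the change of the genotype difference between 2 and 8 cells was -4.67 (adjusted p = 0.0005). At 2 cells 2.3% of all genes were called higher. No gene of the list was called in oocytes. Along the stages, 13 were called higher and 2 lower from 2 to 8 cells in WT, against 31.9% and 16.2% of all genes. In KO these were 12 and 4, against 29.1% and 19.5%. Cldn4 rose by 7.68 in WT (SE 0.74, adjusted p = 3.98e-15), Aqp3 by 6.93 (SE 0.71, adjusted p = 4.58e-14) and Tead4, the factor upstream of Cdx2, by 3.02 (SE 0.50, adjusted p = 3.43e-07). From MII to 2 cells 5 were called higher and 8 lower in WT, against 14.1% and 51.3% of all genes. In KO these were 6 and 6, against 13.5% and 50.3%. Tead4 was already up by 4.49 in WT in this step (SE 0.60, adjusted p = 6.64e-10).

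Of the wider primitive endoderm list 15 of 20 genes were tested, and none was called between genotypes at any stage by edgeR's quasi-likelihood test. Dab2, an endocytic adaptor, differed by 1.29 at 2 cells (adjusted p = 0.0512) and was called there by, among other settings, the likelihood ratio test (adjusted p = 0.0376) and DESeq2 (adjusted p = 0.0199). Its genotype difference changed from 2 to 8 cells by -2.00 (SE 0.54, adjusted p = 0.0284), a call lost under spike-in scaling (-2.16, adjusted p = 0.0833). From 2 to 8 cells 5 were called higher and none lower in WT, and 3 and 1 in KO, shares near or below the 31.9% and 29.1% of all genes called higher. Dab2 rose by 4.37 in WT (SE 0.51, adjusted p = 9.39e-12) and Lrp2, an endocytic receptor, by 6.22 (SE 0.97, adjusted p = 7.11e-08). In the step from MII 1 was called higher and 8 lower in WT, against 14.1% and 51.3% of all genes. In KO these were 1 and 5, against 13.5% and 50.3%. The laminin chain gene Lamb1 fell by 4.91 in WT (SE 0.71) and by 4.87 in KO (SE 0.71).

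Family relatives of the members, of which 13 of 19 were tested, gave 1 call between genotypes. Tfap2b, another AP-2 gene, had 3 counts in 3 of 11 WT 2-cell embryos and 47 counts in 10 of 11 embryos labelled KO, a ratio of 13.4 (95% interval 4.31 to 67.3) (adjusted p = 0.0013). In oocytes it was at a mean of 24.5 CPM in WT and 16.5 CPM in KO. Its change of the genotype difference from MII to 2 cells was 4.10 (adjusted p = 0.001). Within libA the 2-cell difference was not called (adjusted p = 0.549) and within libB it was (adjusted p = 0.0092). Of 16 inner cell mass and epiblast factors 14 were tested, and Utf1 alone was called between genotypes. At 2 cells it was higher in embryos labelled KO (1.75, adjusted p = 0.0176), where 2.3% of all genes were called higher. Within libA this was 0.19 and not called, and within libB 2.85 (adjusted p = 0.0059). From 2 to 8 cells its difference changed by -2.27 (adjusted p = 0.0220) and that of Pou5f1 by -1.95 (adjusted p = 0.0306). Each call was met in 1 of 2 other settings.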

How the data were processed

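Single oocytes and embryos were profiled by single-cell tagged reverse transcription, a 5′-end method with unique molecular identifiers, in 2 pools (libA and libB) that each held every stage and genotype. The table deposited by the authors holds raw counts of unique molecules per gene and per ERCC spike-in. Per their methods, reads were aligned with TopHat to mm9 and counted over a UCSC gene annotation; the submitters' processing notes name HOMER and mm9. Donor females are not given per library.

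Members, gene lists and tests were chosen with earlier results of these data known. The named genes are the members, and from each list those called between genotypes plus, per stage step, up to 4 with the lowest adjusted p. Libraries with a median CPM below 1 over 16578 genes were left out. Genes reaching 1 CPM in 5 or more libraries were fitted with edgeR 4.0.16 (quasi-likelihood, R 4.3.3) over the 6 groups, with TMM library sizes for genotype and interaction and spike-in totals for stages, and Benjamini-Hochberg adjustment over 16511 genes. DESeq2 1.42.0, the likelihood ratio test, other scalings, filters, single pools and left-out embryos were alternatives. Count ratios have exact 95% intervals. Permutation tests used scipy 1.17.1, with log2(CPM + 1). Motifs were searched in the mm9 genome. The genes most like Gata3 in pattern are not reported here. No pair of libraries was identical. Gene totals of 92475 to 2502421 counts per library set the precision.

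Oocyte libraries of opposite genotype shared wells across the pools. After group and pool means were taken out, the deviations of all 14 such pairs correlated at 0.148 to 0.782 (from -0.056 with group means alone), and the well was treated as a pairing in an alternative. At 8 cells each of the 12 pairs sharing a well held 1 genotype. Their deviations correlated at 0.104 to 0.416 (from 0.0032 with group means alone). These libraries may not be fully independent, and no pairing by well was fitted at 8 cells. On simulated counts for 16511 genes, 200 were given a 4-fold change. For the 8-cell genotype comparison 158 of the 200 were recovered, and 29 genes without a given change were called. For the step from 2 to 8 cells in WT these numbers were 165 and 42. Calls of genes without a given change are false, and the Cdx2 call, close to the threshold, is to be read with them in mind.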

Additional observations from a re-analysis of the deposited data

How the results depend on the processing

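The values that follow are log2 changes or counts of called members. The 1 member called between genotypes at 8 cells (Cdx2) became 0 with an adjusted p below 0.01, no filter on low genes, the likelihood ratio test, DESeq2, pool as a term, libA alone, libB alone, only the 2 groups compared, spike-in scaling and median-ratio scaling, and was 0 to 1 when single embryos were left out. The stage count from 2 to 8 cells in WT fell from 5 to 3 in libA. In KO, that from MII to 2 cells fell from 4 to 2 at 0.01, in libA and in libB, and that from 2 to 8 cells from 5 to 3 in libA and in libB. Thinning lowered the members with a count in most KO 8-cell embryos from 7 to 4. The members with their highest mean in an oocyte group were 2 in CPM, 4 in spike-in levels and 1 with all 90 libraries, and those at 2 cells 3 in CPM and 1 in spike-in levels.

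Directions that turned belonged mostly to members near 0. In oocytes these were Cdx2 with DESeq2 (-0.30), Gata3 (0.28) and Gata4 (0.00094) with spike-in scaling, Gata6 in libA (-0.34) and Id2 in libB (-0.062). At 2 cells they were Cdx2 (-2.65) and Gata3 (-0.82) in libA and Id2 with all 90 libraries (0.24). At 8 cells they were Tfap2a in libA (-0.78) and Id2 in libB (-0.13), and leaving out single embryos gave -0.26 to 1.58 for Elf5 and -0.085 to 0.47 for Id2. With all 90 libraries the interactions of Gata4 (0.21) and Id2 (-0.13) turned. From MII to 2 cells in WT these were Tfap2c (0.99 in libB, 1.27 with TMM, 1.31 with median-ratio scaling), Id2 (0.92 and 0.95 with those scalings) and Gata4 (-0.16 with all 90 libraries, -0.34 in libA). In KO they were Cdx2 in libA (-1.14), Gata4 in libA (0.068), and with TMM and median-ratio scaling Tfap2a (1.32, 1.68), Tfap2c (0.62, 0.86), Gata4 (1.66, 1.93) and Id2 (0.30, 0.64). From 2 to 8 cells in WT Tfap2a (0.059) and Id2 (0.025) turned in libB and Id2 (0.023) with all 90 libraries, and in KO Id2 with TMM (-0.47) and median-ratio scaling (-0.73). The cause was not tested beyond the scaling itself, which shifts all genes.

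The oocyte comparison with the well as replicate block called 0 members, as without it, with Gata6 at 0.80 and Gata3 at -0.09. The 2-cell libraries were the shallowest, where a limit of 3 counts over the WT group is 1.48 CPM, against 0.295 CPM in WT oocytes.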
